A study of Rattus norvegicus with 48 samples.

Results

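The response of a fast shin muscle, the extensor digitorum longus, to a run to exhaustion was examined in young rats of the HCR line. The labels abbreviate the lines as HCR and LCR, which commonly stand for rats selected for high and for low running capacity. The 12 arrays were chosen by their labels from 48: 6 of young HCR rats that were exhausted and 6 of young HCR rats at rest. The other 36 arrays (young LCR, old HCR and old LCR rats, each exhausted or at rest, 6 arrays a group) entered the shared estimate of spread, and young LCR and old HCR rats were used for comparison. All rats are described as young or old without an age in months, and neither the running protocol, the delay from exhaustion to sampling, nor a batch is stated. No allele, drug or other agent is named for any group. Replicates of a group carry different animal numbers, although 2 animals are named in the title of the array called young HCR rest replicate 6. The numbers used here follow the order of deposit and serve only as names.

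A muscle that works to exhaustion is known to switch on, within a short time, genes that lie idle at rest. Calcium, stretch, catecholamines and kinase cascades first induce early response transcription factors of the AP-1, EGR, NR4A and Kruppel-like families, together with phosphatases and mRNA decay factors that end the same signals. Stress hormones, falling energy stores, heat and altered blood flow add glucocorticoid targets, fasting genes, chaperones and vascular genes.

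Values are deposited log2 array signals, 1 per probe set, and differences are exhausted minus rest. A difference of 1 is a doubling of the signal. Of 9558 genes tested with limma, 461 rose and 369 fell at an adjusted p below 0.05, that is 8.68% of the genes, 4.82% higher and 3.86% lower. The rises were larger than the falls: the median size was 0.55 among genes that rose and 0.40 among genes that fell, against a median difference of -0.03 over all genes tested. At least 1.5-fold changes numbered 208 up and 82 down, and at least 4-fold changes 16 up. The 6 exhausted arrays lay above all 6 rest arrays in 267 genes (2.79% of those tested) and below them in 220 (2.3%), and 238 rises and 140 falls were both called and free of overlap. In 18 of the genes that rose all rest arrays lay at or below 4.54, the median of all values and the limit of the filter on dim genes. In 7 of the genes that fell all exhausted arrays did.

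Pairs of arrays correlated at 0.972 to 0.986 among exhausted rats, at 0.969 to 0.987 among rested rats and at 0.954 to 0.979 between the groups, so the groups overlapped in this measure. Young HCR exhausted replicate 1 stood apart, with a limma quality weight of 0.402, and without it 417 genes rose and 272 fell. As a check of the labelled muscle, Myh4, the fast myosin heavy chain of type IIB fibres, was at 13.14 ± 0.06 after the run and 13.16 ± 0.06 at rest (SD, n = 6 each). In bulk tissue fewer cells of a type and less RNA per cell cannot be told apart.

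The 5 largest rises were of Nr4a2, Junb, Mt2A, Sik1 and Coq10b. The largest rises and falls were picked by size among called genes in these same arrays, which favours a lack of overlap. Nr4a2, an orphan nuclear receptor of the early response, ran from 10.16 to 11.37 (median 10.65) in exhausted rats, against 6.65 to 8.26 (median 6.79) in rested rats. It was higher by 3.64 ± 0.34 (SE, 12.4-fold, adjusted p = 1.14e-10). Junb, a subunit of AP-1, ran from 7.51 to 8.45 (median 8.07) in exhausted rats, against 4.23 to 5.68 (median 4.78) in rested rats and was higher by 3.18 ± 0.26 (9.06-fold, adjusted p = 2.08e-12). In both genes every exhausted array lay above every rest array, and rest replicate 2 was the highest of the rested rats.

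Mt2A, a metallothionein that binds zinc and copper, ran from 6.64 to 7.92 (median 7.18) in exhausted rats, against 3.65 to 4.69 (median 4.11) in rested rats. Its difference was 3.06 ± 0.39 (8.33-fold, adjusted p = 1.27e-07), and 5 of its 6 rest values lay below the filter limit of 4.54. Sik1, a salt-inducible kinase that acts on CREB coactivators, ran from 9.45 to 10.12 (median 9.60) in exhausted rats, against 6.19 to 7.66 (median 6.58) in rested rats, a difference of 2.97 ± 0.27. Coq10b, a mitochondrial protein that binds coenzyme Q, ran from 8.72 to 9.69 (median 8.94) in exhausted rats, against 5.77 to 6.72 (median 5.93) in rested rats and was higher by 2.95 ± 0.22 (7.75-fold, adjusted p = 2.97e-13). The groups did not overlap in any of the 3.

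The other 10 of the 15 largest rises were of Arrdc2 (an arrestin-domain protein), Fos (AP-1), Ddit4 (an inhibitor of the growth kinase mTORC1), Maff (a small Maf factor), Apold1 (an endothelial gene of the early response), Ptgs2 (the inducible cyclooxygenase), Hes1 (a repressor induced by Notch and other signals), Stc1 (the glycoprotein hormone stanniocalcin), Zfp36 (which destabilises mRNAs) and Irs2 (an adaptor of the insulin receptor). They were higher by between 2.10 and 2.73, and none overlapped between the groups. Hes1 was tight within groups: its lowest, median and highest values were 8.45, 8.86 and 9.06 after the run, against 6.17, 6.58 and 6.89 at rest. Fos was spread: its values were 7.99, 8.80 and 9.58 after the run, against 5.34, 6.12 and 7.72 at rest, and rest replicate 2 came near the lowest exhausted rat.

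**Figure D1:**
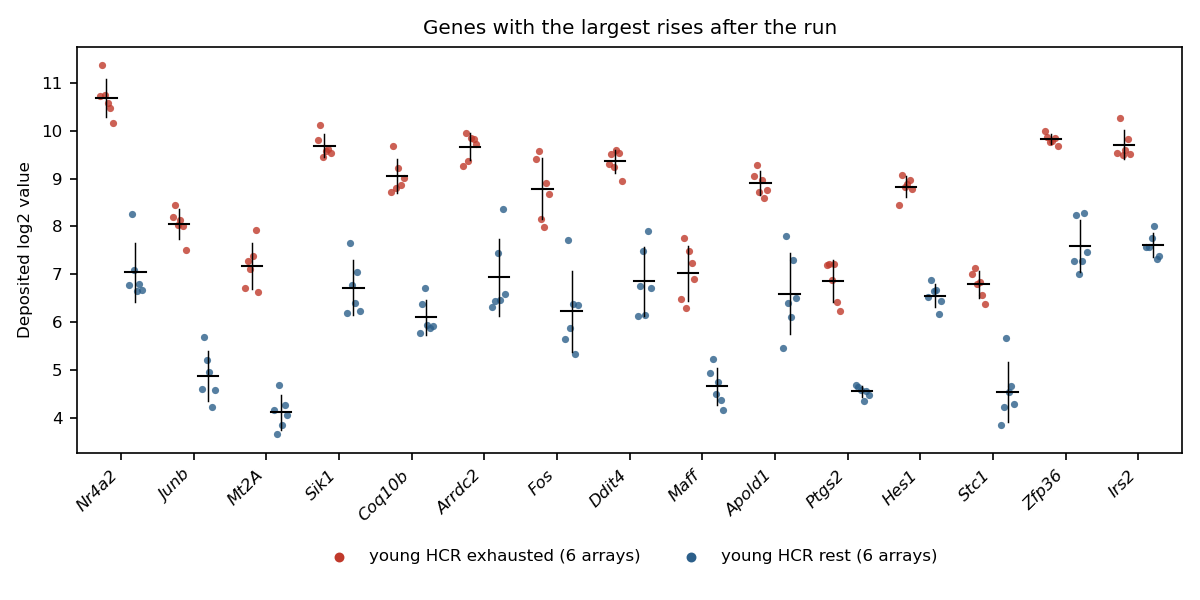
Deposited log2 values (y axis) of the 15 genes with the largest rises (x axis), 1 point per array, young HCR exhausted on the left of each gene and young HCR rest on the right, 6 arrays each; horizontal bars are means and vertical bars SD. Every exhausted array lies above every rest array in each of the 15 genes, and Nr4a2 differs most, by 3.64. The choice of genes by size in these same arrays favours such separation, which 2.79% of all genes tested showed.

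Promoter sequence was set beside some of these genes, since metal-responsive, serum-responsive and cAMP-responsive elements are textbook sites of such genes. The stretches below are RefSeq sequence of the rat assembly GRCr8, taken from the 250 bases before the start site, with matches in capitals.
Mt2A (chr19:10838719-10838958, minus strand): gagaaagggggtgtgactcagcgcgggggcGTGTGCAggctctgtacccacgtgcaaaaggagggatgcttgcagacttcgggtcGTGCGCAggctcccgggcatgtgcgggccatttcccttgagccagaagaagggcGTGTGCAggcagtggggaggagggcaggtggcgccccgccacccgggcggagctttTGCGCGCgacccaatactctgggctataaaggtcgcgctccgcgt
Egr1 (chr18:26736938-26737039, plus strand): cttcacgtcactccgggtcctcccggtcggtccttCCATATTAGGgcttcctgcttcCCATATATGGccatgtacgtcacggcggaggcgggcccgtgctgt
Zfp36 (chr1:92799109-92799175, minus strand): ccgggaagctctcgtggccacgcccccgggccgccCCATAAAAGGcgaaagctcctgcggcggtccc
Maff (chr7:112792701-112792780, plus strand): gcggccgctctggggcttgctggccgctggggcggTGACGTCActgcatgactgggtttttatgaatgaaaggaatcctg
Mt2A is shown for the metal response element, searched as TGCACNC or TGCGCNC on both strands, of which it holds 4 matches. Egr1 and Zfp36 are shown for the CArG box, the site of serum response factor (CC, 6 letters that are A or T, GG), with 2 matches and 1 match. Maff is shown for the full cAMP response element, the 8 letters in capitals, with 1 match. None of the 3 motifs contains another. Every gene shown holds a match, and Egr1 is not among the 15 largest rises. Of those 15 rises, 12 had a matched promoter: 4 held the metal response element, 1 a CArG box and 1 the cAMP response element. None of the 12 held more than 1 of these motifs, and each motif was absent from most of the 12.

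Over the 33469 promoters of the table, 20.6% held the metal response element, 1.5% a CArG box and 1.59% the cAMP response element. Promoters were matched for 7765 of the 9558 tested genes, for 373 of those that rose and for 302 of those that fell. The CArG box was in 2.95% of the genes that rose, in 0.662% of those that fell and in 1.27% of all matched tested genes. The cAMP response element was in 2.95%, 1.32% and 2.63% in the same order. The metal response element was in 35.4%, 30.8% and 30.9%. The E-box CACGTG was in 12.9%, 6.29% and 8.36%, and the NF-kB site in 8.58%, 2.98% and 4.49%. Of the 10 motifs searched the other 5 are given by the same 3 shares, and matches of different motifs may overlap. The AP-1 site TGANTCA was in 5.9%, 4.97% and 5.02% (6.34% of all promoters), and the heat shock element (GAA, any 2 bases, TTC) in 6.17%, 6.95% and 5.29% (7.23% of all promoters). The glucocorticoid half-site TGTTCT was in 8.58%, 10.3% and 11.7% (17.5% of all promoters). The FoxO site TGTTTAC was in 3.75%, 4.3% and 2.15% (3.21% of all promoters), and the EGR site GCGTGGG in 8.85%, 6.29% and 6.37% (3.68% of all promoters). A match describes the sequence and shows neither a site in use nor a cause.

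The early response as a whole was measured with 4 lists of transcription factors and their brakes. Counts in these and all later lists stand against 4.82% of all genes tested that rose and 3.86% that fell. Of 10 AP-1 and Maf factors 6 rose, and the median difference of the list was 0.71. Besides Junb, Fos and Maff these were Atf3, an AP-1 partner of the stress response, at 6.70 ± 0.51 after the run and 5.24 ± 0.33 at rest (SD), and Fosb and Mafk, at differences of 0.91 and 0.51. Jun and Jund did not pass the threshold, at -0.02 and 0.36. Of 13 EGR, NR4A and other early response genes 8 rose, with a median of 0.95. Csrnp1, a nuclear protein induced by AXIN1 and cytokines, differed by 1.72 ± 0.20. Nr4a1, the most studied NR4A receptor of exercised muscle, ran from 11.25 to 11.65 (median 11.49) in exhausted rats, against 9.50 to 10.58 (median 9.76) in rested rats and differed by 1.60 ± 0.18 (adjusted p = 5.35e-09). Egr1, a zinc finger factor of the early response, overlapped between the groups: its values were 7.93, 8.76 and 9.02 after the run, against 5.86, 6.88 and 9.21 at rest. Rest replicate 2 held that highest rest value, above all 6 exhausted rats, and the difference was 1.48 ± 0.39 (adjusted p = 0.00972). With the 12 young HCR arrays alone in the fit its call was lost (adjusted p = 0.0503).

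Kruppel-like factors moved in number: 8 of 11 rose, with a median of 0.54. Klf4 and Klf2, which act in the vessel wall, differed by 1.96 ± 0.19 and 1.73 ± 0.22. Klf10, a factor induced by TGF-beta, differed by 1.79 ± 0.21. Klf15, a regulator of amino acid and lipid use in muscle, ran from 7.37 to 7.82 (median 7.74) in exhausted rats, against 6.39 to 6.80 (median 6.61) in rested rats, a tight difference of 1.09 ± 0.10 (adjusted p = 9.43e-11) with no overlap.

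The brakes of kinase signalling split. Of 11 MAP kinase phosphatases and feedback inhibitors 5 rose and 2 fell, with a median of 0.19. Errfi1, an inhibitor of the EGF receptor, ran from 11.08 to 11.59 (median 11.28) in exhausted rats, against 8.86 to 10.03 (median 9.53) in rested rats and differed by 1.83 ± 0.19. Dusp1, the phosphatase of p38 and JNK, differed by 1.38 ± 0.18, and Dusp7, which acts on ERK, by 0.96 ± 0.16. Dusp10, another phosphatase of p38 and JNK, fell by 0.80 ± 0.20 (adjusted p = 0.00787), to 8.16, 9.04 and 9.42 after the run, against 8.73, 9.79 and 10.26 at rest. It overlapped through rest replicate 3, the lowest rested rat, and with the 12 young HCR arrays alone in the fit its call was lost (adjusted p = 0.0844), which left 1 fall on the list.

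Of 7 genes of cAMP and CREB signalling 4 rose. After Sik1 came Rgs2, which curbs Gq signalling, with a difference of 1.64 ± 0.21, and the CREB coactivators Crtc1 at 0.54 ± 0.13 and Crtc2 at 0.29 ± 0.09. The call of Crtc2 was lost without any 1 of 7 of the 12 young HCR arrays (difference 0.24 to 0.28, adjusted p up to 0.106). Ppargc1a, the coactivator of mitochondrial biogenesis and a CREB target, was at -0.09, which did not pass (adjusted p = 0.757). Of 7 mRNA decay factors 3 rose: Zfp36 ran from 9.69 to 9.98 (median 9.82) in exhausted rats, against 7.0 to 8.28 (median 7.37) in rested rats, and Zc3h12a, an RNase of inflammatory mRNAs, and Pnrc1, a decapping regulator, differed by 0.47 ± 0.14 and 0.37 ± 0.09. The call of Zc3h12a was lost without exhausted replicate 4 or rest replicate 6 (difference 0.44, adjusted p up to 0.0565).

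Of 10 known glucocorticoid targets 8 rose, with a median of 1.02, the highest among the 38 lists of pathways and gene families, and 5 of the 8 stand on other lists too (Ddit4, Per1, Errfi1, Klf15 and Klf9). Arrdc2 ran from 9.26 to 9.96 (median 9.78) in exhausted rats, against 6.30 to 8.36 (median 6.52) in rested rats, a difference of 2.73 ± 0.29 (adjusted p = 3.13e-09), and rest replicates 5 and 3 were the highest rested rats, as they were in Per1 and Ddit4. Per1, a repressor of the clock that glucocorticoids induce directly, ran from 8.90 to 9.08 (median 9.01) in exhausted rats, against 6.16 to 7.94 (median 6.81) in rested rats. Its SD was 0.07 among exhausted rats and 0.75 among rested rats. Of 10 clock genes Per1, Per2 (a difference of 1.33 ± 0.24) and Nfil3 (0.54 ± 0.17) rose, and the core activator Bmal1 was at -0.43 (adjusted p = 0.195). The call of Nfil3 was lost without any 1 of 8 of the 12 young HCR arrays (difference 0.45 to 0.55, adjusted p up to 0.109). The labels do not state the hour of sampling.

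Insulin and growth signalling changed at a few nodes. Of 11 genes of insulin and FoxO signalling 4 rose and 1 fell. Irs2 ran from 9.49 to 10.27 (median 9.56) in exhausted rats, against 7.32 to 8.01 (median 7.58) in rested rats and differed by 2.10 ± 0.19 (4.29-fold, adjusted p = 6.57e-11), without overlap. Foxo3 and Foxo1, the factors that insulin holds out of the nucleus, rose by 0.60 ± 0.10 and 0.56 ± 0.12. Trib2, a pseudokinase that lowers FoxO activity, fell by 1.20 ± 0.16 (2.3-fold lower, adjusted p = 4.34e-07), and its values were 5.21, 5.63 and 6.01 after the run, against 6.45, 6.86 and 7.20 at rest. Irs1, the sister adaptor of Irs2, was at -0.35 and did not pass.

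Of 10 restraints of mTORC1 3 rose. Ddit4 ran from 8.95 to 9.60 (median 9.41) in exhausted rats, against 6.12 to 7.90 (median 6.73) in rested rats, a difference of 2.51 ± 0.28 (adjusted p = 1.03e-08). Eif4ebp1, which holds back translation initiation, differed by 0.50 ± 0.09. Akt1s1, an inhibitory subunit, differed by 0.27 ± 0.08, a call that was lost without any 1 of 7 of the 12 young HCR arrays (difference 0.21 to 0.27, adjusted p up to 0.123). Of 14 genes of protein breakdown and autophagy 2 rose and 1 fell. Trim63, the ubiquitin ligase MuRF1 of muscle atrophy, ran from 10.60 to 11.12 (median 10.82) in exhausted rats, against 9.92 to 10.15 (median 9.98) in rested rats and differed by 0.84 ± 0.12 (adjusted p = 1.99e-06), whereas Fbxo32, the other atrophy ligase, was at 0.11 (adjusted p = 0.677). The autophagy kinase Ulk1 rose by 0.51 ± 0.13, and Traf6, a ubiquitin ligase, fell by 0.36 ± 0.08. With the 12 young HCR arrays alone the call of Ulk1 was lost (adjusted p = 0.0568), which left 1 rise on the list. Of 11 amino acid transporters Slc7a8 rose by 0.76 ± 0.15 and Slc43a1 by 0.34 ± 0.11, and the call of Slc43a1 was lost without any 1 of 8 of the 12 young HCR arrays (difference 0.30 to 0.34, adjusted p up to 0.0886). With array weights 5 of the 11 rose.

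Some fuel genes of the fasting type rose, and no enzyme of fatty acid oxidation passed. Of 18 genes of the PPAR and fasting list 5 rose and 1 fell, with a median of 0.31. The rises numbered 8 with array weights and 3 without exhausted replicate 2, 5 or 6 or rest replicate 4 or 6. Pdk4, the kinase that shuts off pyruvate dehydrogenase, ran from 10.94 to 12.41 (median 11.89) in exhausted rats, against 9.68 to 10.80 (median 10.58) in rested rats and differed by 1.45 ± 0.37 (adjusted p = 0.00795). Ucp3, an uncoupling protein of muscle, differed by 1.27 ± 0.38 and its relative Ucp2 by 0.77 ± 0.21. The call of Ucp3 was lost without any 1 of 5 of the 12 young HCR arrays (difference 1.12 to 1.21, adjusted p up to 0.0798). Plin2, a coat protein of lipid droplets, fell by 0.63 ± 0.17 (adjusted p = 0.0141), and every exhausted rat lay below every rested one. Angptl4, a PPAR target that inhibits lipoprotein lipase, was at 0.84 and did not pass (adjusted p = 0.126).

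Of 17 enzymes of fatty acid oxidation limma called 0 in either direction, and 0 reached an unadjusted p below 0.05. Their differences ran from -0.14 to 0.20, with a median of -0.02. Hadha, a subunit of the trifunctional protein, was at 11.39 ± 0.16 after the run and 11.41 ± 0.06 at rest (SD). Of 14 citric acid cycle genes 1 fell, Sdhc of succinate dehydrogenase, by 0.23 ± 0.07. Of 36 genes of oxidative phosphorylation 2 fell, and the median was -0.04. Over all genes tested 3.86% fell, so counts this small do not set these 2 lists apart. Atp5f1c, the gamma subunit of ATP synthase, ran from 4.97 to 5.76 (median 5.18) in exhausted rats, against 5.97 to 6.52 (median 6.16) in rested rats, a fall of 0.93 ± 0.12 (1.9-fold lower, adjusted p = 2.68e-07) without overlap, and the other 7 measured subunits of ATP synthase lay between -0.11 and 0.05. Ndufb3 of complex I fell by 0.22 ± 0.06, and its second probe set was at -0.09 with an unadjusted p of 0.288. The call of Sdhc was lost without any 1 of 6 of the 12 young HCR arrays (difference -0.23 to -0.20, adjusted p up to 0.11), and that of Ndufb3 was lost without exhausted replicate 3 (difference -0.20, adjusted p = 0.0534).

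Among 13 genes of mitochondrial biogenesis and dynamics Pprc1, a coactivator related to Ppargc1a, rose by 0.50 ± 0.09 (adjusted p = 0.000169). Coq10b stood alone in its list: the other 8 genes of coenzyme Q synthesis and transport lay between -0.13 and 0.19, and none of them passed. Of 19 genes of glucose transport, glycolysis and glycogen 2 rose and 3 fell. Pfkfb3, which makes the activator of phosphofructokinase, ran from 9.59 to 10.52 (median 10.05) in exhausted rats, against 7.77 to 9.54 (median 8.78) in rested rats and differed by 1.29 ± 0.27 (2.45-fold, adjusted p = 0.000825). Slc2a1 (GLUT1) fell by 0.40 ± 0.12, Hk2, the muscle hexokinase, by 0.31 ± 0.10, and Pkm rose by 0.25 ± 0.07. These 3 calls were lost when 1 array was left out: Hk2 was lost without any 1 of the 12 young HCR arrays (difference -0.33 to -0.28, adjusted p up to 0.0944), Slc2a1 without any 1 of 4 of the 12 young HCR arrays (difference -0.39 to -0.35, adjusted p up to 0.0863), and Pkm without any 1 of 7 of the 12 young HCR arrays (difference 0.22 to 0.24, adjusted p up to 0.0718). Sqle and Msmo1, enzymes of cholesterol synthesis, fell by 0.76 ± 0.15 and 0.34 ± 0.10 among 10 such genes, and the call of Msmo1 was lost without any 1 of 5 of the 12 young HCR arrays (difference -0.34 to -0.26, adjusted p up to 0.122).

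Of 21 heat shock proteins and cochaperones 9 rose, with a median of 0.22. Dnajb1, a cochaperone of Hsp70, ran from 6.39 to 8.11 (median 6.98) in exhausted rats, against 5.31 to 6.01 (median 5.75) in rested rats and differed by 1.41 ± 0.28 (adjusted p = 0.000567). The inducible Hsp70 Hspa1b ran from 5.74 to 7.85 (median 6.70) in exhausted rats, against 5.03 to 5.60 (median 5.43) in rested rats and differed by 1.30 ± 0.24 (adjusted p = 0.000235). Exhausted replicate 1 was the highest in both, at 8.11 and 7.85. When any 1 of the 12 arrays was left out, 8 to 9 members of the list were called. Dnaja1 and Hsph1, both partners of Hsp70, differed by 1.11 ± 0.17 and 0.68 ± 0.12. Hspa5, the chaperone of the endoplasmic reticulum, was at 0.07, and the mitochondrial Hspa9 at -0.13; neither passed.

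Of 7 listed metallothionein and zinc transport genes Mt2A rose. A further metallothionein, Mt1f, which is not on the list and was added after its values were seen, rose by 1.04 ± 0.30 (adjusted p = 0.0195), with overlap between the groups, and Mt3 and Mt4 did not pass, at -0.05 and -0.14. Mtf1, the factor that senses zinc and induces metallothioneins, was at 0.22 (adjusted p = 0.151). Of 14 Nrf2 and antioxidant genes 3 rose by at most 0.50: Txnip, which binds thioredoxin, Gclc of glutathione synthesis, and Nfe2l2, which is Nrf2 itself. The call of Gclc was lost without any 1 of 6 of the 12 young HCR arrays (difference 0.30 to 0.33, adjusted p up to 0.0879), and that of Txnip with the 12 young HCR arrays alone in the fit (adjusted p = 0.0941). The stress response of ATF4 had 5 of 15 genes higher, with a median of 0.18. Gadd45g and Gadd45b, both of growth arrest, differed by 1.36 ± 0.19 and 1.0 ± 0.23, Ppp1r15a, which restarts translation, by 1.31 ± 0.14, and Chac1, a glutathione-degrading enzyme, by 1.22 ± 0.27. Atf4 and Ddit3 were at 0.00 and 0.06 and did not pass.

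**Figure D2:**
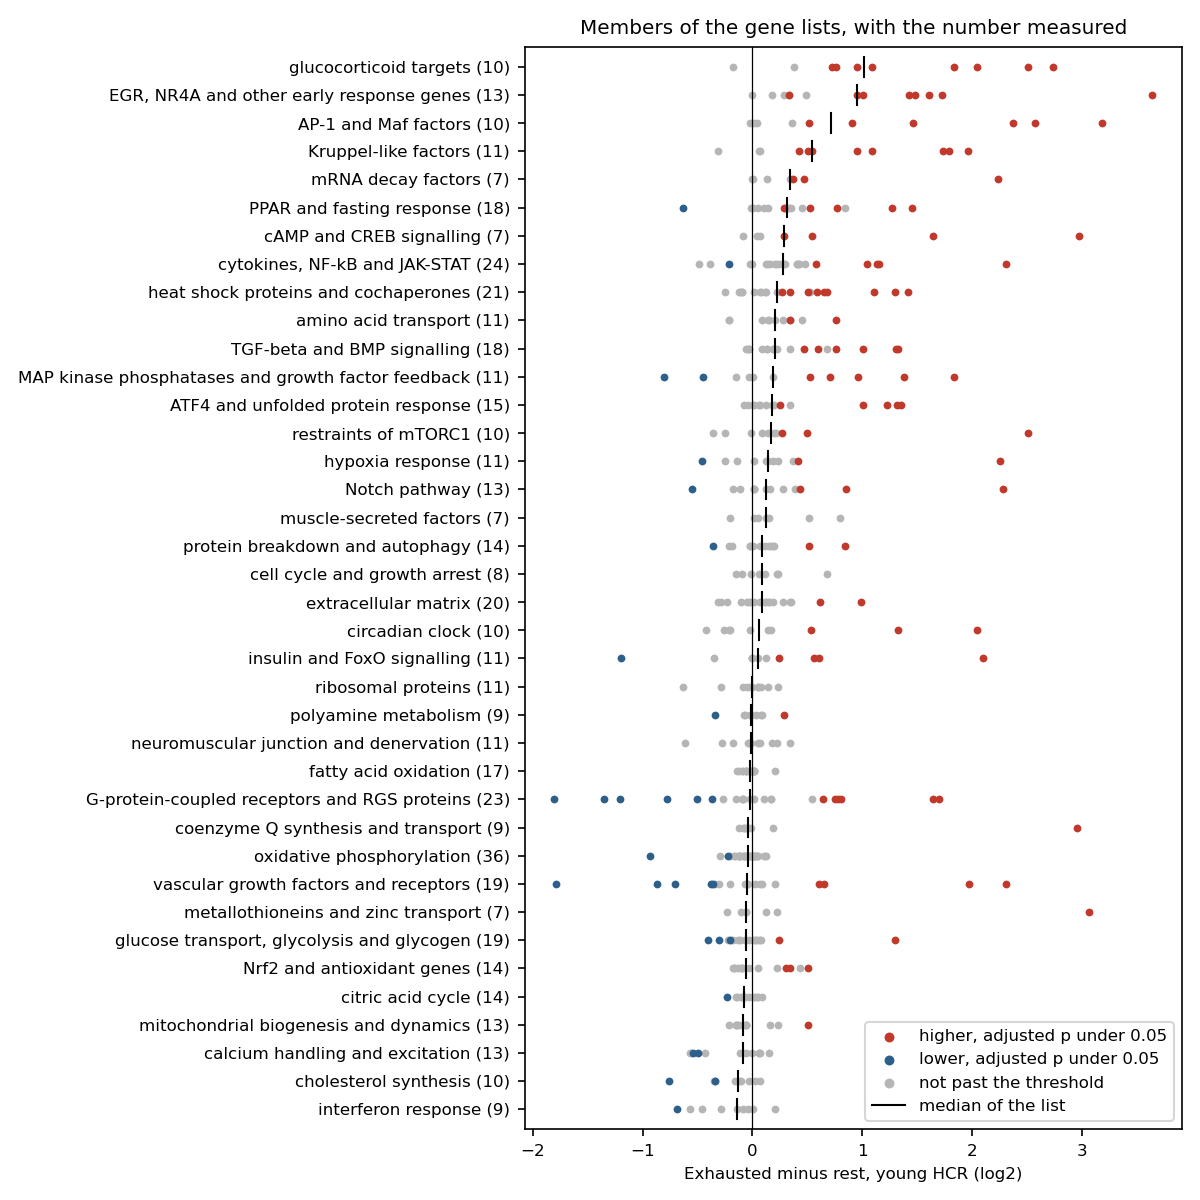
Exhausted minus rest differences on the log2 scale (x axis) of the measured members of the 38 lists of pathways and gene families (y axis, number measured in brackets), 6 against 6 young HCR arrays; red points rose, blue points fell, grey points did not pass, and the black tick is the list's median. Glucocorticoid targets (median 1.02), EGR and NR4A genes (0.95) and AP-1 factors (0.71) lie farthest to the right.

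Vessel genes changed both ways. Of 19 vascular growth factors and receptors 4 rose and 5 fell, and without exhausted replicate 4 the falls numbered 3. Apold1 ran from 8.59 to 9.27 (median 8.87) in exhausted rats, against 5.46 to 7.81 (median 6.45) in rested rats and differed by 2.30 ± 0.34 (adjusted p = 4.9e-06). Adamts9, a secreted protease of the matrix around vessels, ran from 8.33 to 9.38 (median 8.85) in exhausted rats, against 6.47 to 7.37 (median 6.79) in rested rats and differed by 1.97 ± 0.19 (3.92-fold, adjusted p = 1.14e-10). Aplnr, the receptor of the vessel peptide apelin, ran from 4.95 to 5.60 (median 5.37) in exhausted rats, against 6.63 to 7.54 (median 7.16) in rested rats, a fall of 1.79 ± 0.19 (3.45-fold lower, adjusted p = 1.28e-09). Efna1, a ligand of Eph receptors, fell by 0.87 ± 0.11 (adjusted p = 7.05e-08). Neither receptor nor ligand overlapped between the groups, and Apln, the gene of apelin, was at -0.31 (adjusted p = 0.129).

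Markers of endothelial cells did not move one way: of 8, the junction genes Cldn5 (1.06 ± 0.20) and Esam (0.64 ± 0.15) rose, and the angiopoietin receptors Tek and Tie1 fell, by 0.38 ± 0.10 and 0.36 ± 0.10. Their mean level was 7.36 to 7.64 in exhausted rats, against 7.24 to 7.52 in rested rats. The calls of Tek and Tie1 were lost without exhausted replicate 4 (difference -0.33, adjusted p = 0.0535) and without any 1 of 3 of the 12 young HCR arrays (difference -0.32 to -0.29, adjusted p up to 0.0819). Of 6 markers of smooth muscle cells and pericytes 3 fell, Kcnj8, Pdgfrb and Abcc9, by 0.67 ± 0.21, 0.46 ± 0.12 and 0.23 ± 0.06, and all 6 had a lower mean after the run. Kcnj8 and Abcc9 encode the subunits of a vascular potassium channel. Their calls were lost without any 1 of 8 of the 12 young HCR arrays (difference -0.67 to -0.59, adjusted p up to 0.1) for Kcnj8 and without exhausted replicate 4 or rest replicate 4 (difference -0.21 to -0.20, adjusted p up to 0.0533) for Abcc9, and without exhausted replicate 4 or rest replicate 4 the list had 1 fall. The mean level of the 6 markers was 7.31 to 7.66 in exhausted rats, against 7.63 to 7.83 in rested rats, so 1 exhausted array overlapped, and its part in the vascular changes was not tested.

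Receptors and their regulators held some of the largest falls. Of 23 G-protein-coupled receptors and RGS proteins 6 rose and 6 fell. Lpar6, a receptor of lysophosphatidic acid, ran from 6.11 to 6.42 (median 6.17) in exhausted rats, against 7.31 to 8.63 (median 8.07) in rested rats, a fall of 1.80 ± 0.17 (3.48-fold lower, adjusted p = 1.14e-10). Rgs4, which shuts off Gi and Gq signals, fell by 1.35 ± 0.17 and ran from 5.63 to 6.29 (median 6.07) in exhausted rats, against 6.93 to 7.82 (median 7.53) in rested rats. Cxcr4, the receptor of the chemokine Cxcl12, fell by 1.20 ± 0.20 (adjusted p = 3.13e-05). In the opposite direction Uts2r, the receptor of the vasoactive peptide urotensin, ran from 5.87 to 6.80 (median 6.40) in exhausted rats, against 4.17 to 5.24 (median 4.59) in rested rats and rose by 1.70 ± 0.24 (adjusted p = 2.38e-06). None of the 4 overlapped.

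Other large falls followed. Gimap7, a GTPase of lymphocytes and endothelium, fell by 1.34 ± 0.25 to 3.50, 4.30 and 4.64 after the run, against 4.87, 5.44 and 5.97 at rest. Tnfsf10, the death ligand TRAIL, fell by 1.25 ± 0.21 (adjusted p = 3.55e-05), and Cd274, the checkpoint ligand PD-L1, by 1.04 ± 0.16 (adjusted p = 6.62e-06). Slc16a12, a creatine transporter, fell by 1.04 ± 0.17, Calhm5, of the calcium homeostasis modulator family, by 1.09 ± 0.18, and Mas1l, Kctd12b and Lrrc3b by 0.99 to 1.03. Of these 8 Calhm5 alone overlapped, through exhausted replicate 3.

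Among the 15 largest falls 2 others overlapped. Cyp2c23, a cytochrome P450 that forms epoxides of arachidonic acid, was at 2.83, 3.64 and 4.20 after the run, against 3.58, 4.63 and 7.90 at rest. The highest was rest replicate 3, which also had the highest mean of the 12 measured liver markers, 8.29, against 4.13 to 4.79 in the other rested rats and 4.02 to 4.86 in exhausted rats. The fall of 1.37 ± 0.40 (adjusted p = 0.0214) was lost without exhausted replicate 2 or rest replicate 3 (difference -1.21 to -0.79, adjusted p up to 0.0949). Ifgga2l1, an interferon-inducible GTPase, fell by 1.18 ± 0.37 (adjusted p = 0.033), a call lost without any 1 of 5 of the 12 young HCR arrays (difference -1.17 to -0.90, adjusted p up to 0.123).

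**Figure D3:**
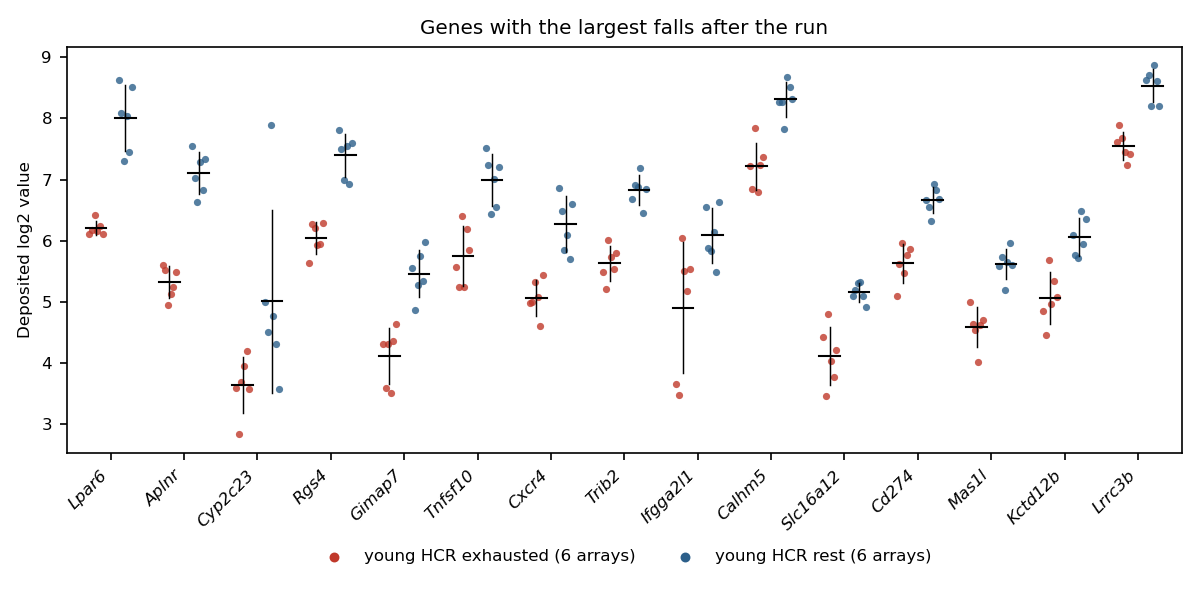
Deposited log2 values (y axis) of the 15 genes with the largest falls (x axis), 1 point per array, young HCR exhausted on the left of each gene and young HCR rest on the right, 6 arrays each; horizontal bars are means and vertical bars SD. The groups separate in 12 of the 15, and overlap in Cyp2c23, Ifgga2l1 and Calhm5. The choice of genes by size in these same arrays favours such separation, which 2.3% of all genes tested showed.

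Of 11 hypoxia genes Stc1 (2.25 ± 0.28) and the collagen hydroxylase P4ha1 (0.41 ± 0.10) rose, and Ankrd37 fell by 0.46 ± 0.15, a call lost without any 1 of 9 of the 12 young HCR arrays (difference -0.47 to -0.38, adjusted p up to 0.127). Stc1 was at 6.38, 6.82 and 7.13 after the run, against 3.84, 4.41 and 5.66 at rest. Of 13 Notch genes Hes1, the feedback inhibitor Nrarp (0.85 ± 0.20) and the ligand Dll1 (0.43 ± 0.14) rose, and the ligand Jag1 fell by 0.55 ± 0.12 (adjusted p = 0.00112). The call of Dll1 was lost without any 1 of 10 of the 12 young HCR arrays (difference 0.40 to 0.45, adjusted p up to 0.0924). Of 18 genes of TGF-beta and BMP signalling 6 rose, with a median of 0.20: the ligand Bmp2 differed by 1.32 ± 0.20, the corepressor Tgif1 by 1.30 ± 0.16, the matricellular protein Ccn2 by 1.01 ± 0.16 and the BMP target Id1 by 0.76 ± 0.17.

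Of 24 genes of cytokines, NF-kB and JAK-STAT signalling 5 rose and 1 fell, with a median of 0.28. The fall, of the receptor gene Lifr, was lost without exhausted replicate 2 or 4 or rest replicate 3, and after median centring, with no filter, with the 12 young HCR arrays alone and with a liver covariate, whereas array weights gave 3 falls. Ptgs2 ran from 6.22 to 7.22 (median 7.03) in exhausted rats, against 4.35 to 4.69 (median 4.57) in rested rats and differed by 2.30 ± 0.20 (adjusted p = 1.85e-11). The interleukin-6 receptor gene Il6r differed by 1.15 ± 0.14, the NF-kB inhibitor Nfkbia by 1.14 ± 0.15 and the factor Cebpb by 1.05 ± 0.15. Of 9 interferon-response genes Ifit2 fell by 0.69 ± 0.15 (adjusted p = 0.00233), and the other 8 did not pass. Macrophage markers were higher in 8 of 9 by value, and 2 rose: Lyve1, a hyaluronan receptor of resident macrophages and lymphatic vessels, by 0.97 ± 0.19, and the complement gene C1qc by 0.54 ± 0.14. Their mean level was 6.27 to 6.50 after the run, against 5.71 to 6.26 at rest. The groups were barely apart, with the lowest exhausted array at 6.272 and the highest rest array at 6.265. The part of this level in the inflammatory genes was not tested. Of 10 neutrophil markers 0 passed the filter on dim genes.

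Of 7 measured markers of tendon 3 rose, and all 7 had a higher mean after the run: Chad (chondroadherin) by 1.55 ± 0.45, Fmod (fibromodulin) by 1.48 ± 0.38 and Tnmd (tenomodulin) by 1.08 ± 0.27. Fmod was at 10.32, 10.45 and 10.77 after the run, against 7.79, 9.09 and 9.83 at rest. The mean level of the 7 was 7.83 to 8.63 in exhausted rats, against 6.43 to 7.87 in rested rats. The rested rats were the more spread. In young LCR rats the level was 7.55 to 8.37 after exhaustion and 7.15 to 8.44 at rest. The call of Chad was lost without rest replicate 1 or rest replicate 3 (difference 1.29 to 1.36, adjusted p up to 0.0817), and that of Tnmd with the 12 young HCR arrays alone in the fit (adjusted p = 0.066). The list had 5 rises with array weights. Of 20 matrix genes 2 rose, the collagen crosslinker Lox by 0.99 ± 0.28 and the protease inhibitor Timp3 by 0.61 ± 0.12. Lox was high in rest replicates 4 and 5, where Chad and Fmod were high too, and its call was lost without rest replicate 1 (difference 0.84, adjusted p = 0.0617). The part of the tendon markers in the matrix and TGF-beta genes was not tested.

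**Figure D4:**
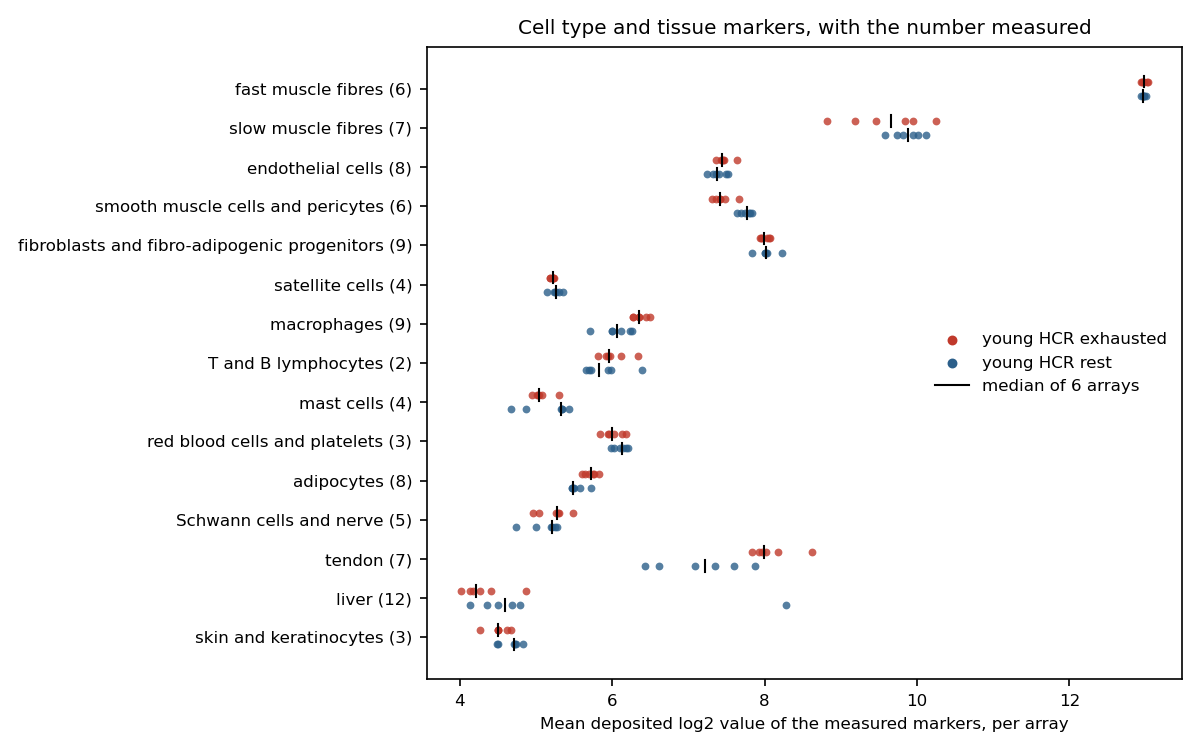
Mean deposited log2 value of the measured markers of each cell type or tissue (x axis, number of markers in brackets), 1 point per array, young HCR exhausted above young HCR rest, 6 arrays each; black ticks are medians. The groups barely separate for macrophages (6.27 to 6.50 against 5.71 to 6.26, with the nearest arrays at 6.272 and 6.265). They nearly separate for smooth muscle cells and for tendon, and 1 rest array stands apart for liver, at 8.29.

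Several lists held few or no calls. Of 13 genes of calcium handling and excitation 2 fell, the inward rectifier Kcnj2 by 0.54 ± 0.11 (adjusted p = 0.000946) and phospholamban, Pln, by 0.50 ± 0.14, the second lost without any 1 of 3 of the 12 young HCR arrays (difference -0.46 to -0.40, adjusted p up to 0.0872). Slow fibre markers had 0 of 7 called by limma and 0 at an unadjusted p below 0.05, at a median of -0.29, and their mean level was 8.81 to 10.25 after the run against 9.59 to 10.11 at rest. Fast fibre markers had 0 of 6 called and 0 at an unadjusted p below 0.05, within -0.02 to 0.04. Limma called 0 of 11 genes of the neuromuscular junction (1 higher and 1 lower at an unadjusted p below 0.05), 0 of 7 muscle-secreted factors (0 unadjusted), 0 of 11 ribosomal protein genes (1 lower unadjusted) and 0 of 8 cell cycle genes (1 higher unadjusted). In polyamine metabolism Oaz2, an antizyme, rose by 0.28 ± 0.09 and Amd1 fell by 0.34 ± 0.11 among 9 genes. These calls were lost without any 1 of 8 of the 12 young HCR arrays (difference 0.24 to 0.29, adjusted p up to 0.111) and without any 1 of 10 of the 12 young HCR arrays (difference -0.36 to -0.27, adjusted p up to 0.153). The other 2 probe sets of Oaz2 were at 0.12 and 0.01.

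Among the other cell type markers limma called 0 of 9 for fibroblasts (2 higher and 2 lower at an unadjusted p below 0.05) and 0 of 4 for satellite cells (1 and 1). It called 0 of 4 for mast cells (0), 0 of 8 for adipocytes (2 higher), 0 of 12 for liver (2 lower) and 0 of 3 for skin (0). For lymphocytes it called 0 of 2 (1 higher, Cd4). Of the 8 lymphocyte markers on the array only Cd4 and Cd8a passed the filter on dim genes. Cd8a exceeded the filter limit in 1 of the 12 young HCR arrays. Alb, the gene of serum albumin, ran from 5.45 to 8.84 (median 5.67) in exhausted rats, against 5.30 to 12.39 (median 7.38) in rested rats and did not pass (adjusted p = 0.416). Of 3 blood markers Gp9, of platelets, fell by 0.48 ± 0.15, a call lost without any 1 of 8 of the 12 young HCR arrays (difference -0.49 to -0.37, adjusted p up to 0.15). Of 5 Schwann cell markers Ngfr, the low-affinity neurotrophin receptor, rose by 0.55 ± 0.15 (adjusted p = 0.0108).

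The design also asks whether the response differs between the lines, and the response of young LCR rats, which shares no array with it, was set against it. The difference of the 2 responses was tested in the same limma fit. It passed in 34 genes (0.356% of those tested), 26 higher and 8 lower in HCR, and all 34 had also changed, in the same direction, in young HCR rats. That agreement is largely built in, because the contrast includes the young HCR response itself. In young LCR rats 76 genes rose and 14 fell. Of the 461 rises in young HCR rats 63 were called in young LCR rats too, which is 13.7% of the first set and 82.9% of the second. Of the 369 falls 8 were (2.17% and 57.1%). By sign alone 413 of the 461 and 320 of the 369 ran the same way.

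Coq10b differed most by p. Its levels in the HCR line stand above, and in the LCR line they were 6.72 to 6.98 in exhausted and 5.62 to 6.41 in rested young LCR rats. The LCR response was 0.82 ± 0.22 and the line difference 2.13 ± 0.31 (SE, adjusted p = 0.000252). Maff showed a response of 0.36 ± 0.23 in LCR rats, with a line difference of 2.01 ± 0.33 (SE, adjusted p = 0.000469). Hes1 showed 0.82 ± 0.16 in LCR rats, with a line difference of 1.46 ± 0.22 (SE, adjusted p = 0.000292). Adamts9 showed 0.29 ± 0.19 and a line difference of 1.68 ± 0.26 (SE, adjusted p = 0.000294), and Irs2 showed 0.50 ± 0.19 and 1.60 ± 0.27 (SE, adjusted p = 0.000778). The other named genes with a larger rise in HCR rats were Bach1, a repressor of antioxidant genes, at 0.91 ± 0.17 (SE, adjusted p = 0.00449), Rasd1, a Ras-like protein induced by dexamethasone, at 1.18 ± 0.23 (SE, adjusted p = 0.00669), and Tinagl1, a matrix protein, at 1.26 ± 0.26 (SE, adjusted p = 0.0125). All 8 rose in young HCR rats, and of the 8 only Hes1 passed the threshold in young LCR rats.

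On the lower side the clearest was Rnf125, a ubiquitin ligase, which fell by 0.85 ± 0.09 in HCR rats and was at -0.07 ± 0.09 in LCR rats, a line difference of -0.78 ± 0.13 (SE, adjusted p = 0.000778). Aplnr was at -0.39 ± 0.19 in LCR rats, a line difference of -1.40 ± 0.26 (SE, adjusted p = 0.00441). Its LCR levels were 5.97 to 6.62 in exhausted and 6.39 to 7.20 in rested young LCR rats. Gvinp1, an interferon-induced GTPase, fell by 0.81 ± 0.17 in HCR rats and was at 0.36 ± 0.17 in LCR rats, a line difference of -1.17 ± 0.24 (SE, adjusted p = 0.0112). Lpar6 had -1.10 ± 0.24 (SE, adjusted p = 0.0221), Trib2 -1.01 ± 0.23 (SE, adjusted p = 0.0258), the corepressor subunit Tbl1xr1 -0.50 ± 0.11 (SE, adjusted p = 0.0308), Efna1 -0.66 ± 0.15 (SE, adjusted p = 0.0308) and the glycosyltransferase B3galnt1 -0.80 ± 0.19 (SE, adjusted p = 0.0399). These 5 calls were lost when 1 array was left out: Lpar6 was lost without rest replicate 6 (difference -1.0, adjusted p = 0.0618), Trib2 without any 1 of 4 of the 12 young HCR arrays (difference -1.0 to -0.92, adjusted p up to 0.0783), Tbl1xr1 without any 1 of 4 of the 12 young HCR arrays (difference -0.49 to -0.45, adjusted p up to 0.071), Efna1 without any 1 of 5 of the 12 young HCR arrays (difference -0.65 to -0.58, adjusted p up to 0.0783) and B3galnt1 without any 1 of 10 of the 12 young HCR arrays (difference -0.82 to -0.74, adjusted p up to 0.0997). Nr4a2 and Mt2A, which were among the 3 largest rises, had line differences of 1.85 ± 0.49 (SE, adjusted p = 0.0829) and 2.07 ± 0.54 (SE, adjusted p = 0.0829) and did not pass.

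The effect of age was examined in the same way with old HCR rats. Of 461 rises in young HCR rats 116 were called in old HCR rats, 25.2% of these and 84.1% of the 138 rises of old rats. Of 369 falls 77 were called in old rats, 20.9% of these and 47.2% of the 163 falls of old rats. The difference of the responses passed in 2 genes (0.0209% of those tested), both more strongly raised in young rats, against 554 higher and 202 lower at an unadjusted p below 0.05. Uts2r was at -0.10 ± 0.24 in old rats, with levels of 3.62 to 4.55 in exhausted and 4.10 to 4.96 in rested old HCR rats, an age difference of 1.79 ± 0.35 (SE, adjusted p = 0.0265). Tspyl2, a nucleosome assembly protein of the X chromosome, rose by 1.06 ± 0.10 in young rats and was at 0.31 ± 0.10 in old rats, an age difference of 0.74 ± 0.14 (SE, adjusted p = 0.0265). Both calls were lost when single arrays were left out, Uts2r without any 1 of 7 of the 12 young HCR arrays (difference 1.70 to 1.85, adjusted p up to 0.0825) and Tspyl2 without any 1 of 8 of the 12 young HCR arrays (difference 0.69 to 0.74, adjusted p up to 0.0979). Fos rose in young rats and was at -0.15 ± 0.44 in old rats, but the age difference of 2.72 ± 0.62 (SE, adjusted p = 0.126) did not pass. Egr1 and Atf3 were at -0.07 ± 0.39 and -0.52 ± 0.35 in old rats, and did not pass either, with age differences of 1.55 ± 0.55 (SE, adjusted p = 0.397) and 1.98 ± 0.50 (SE, adjusted p = 0.205).

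**Figure D5:**
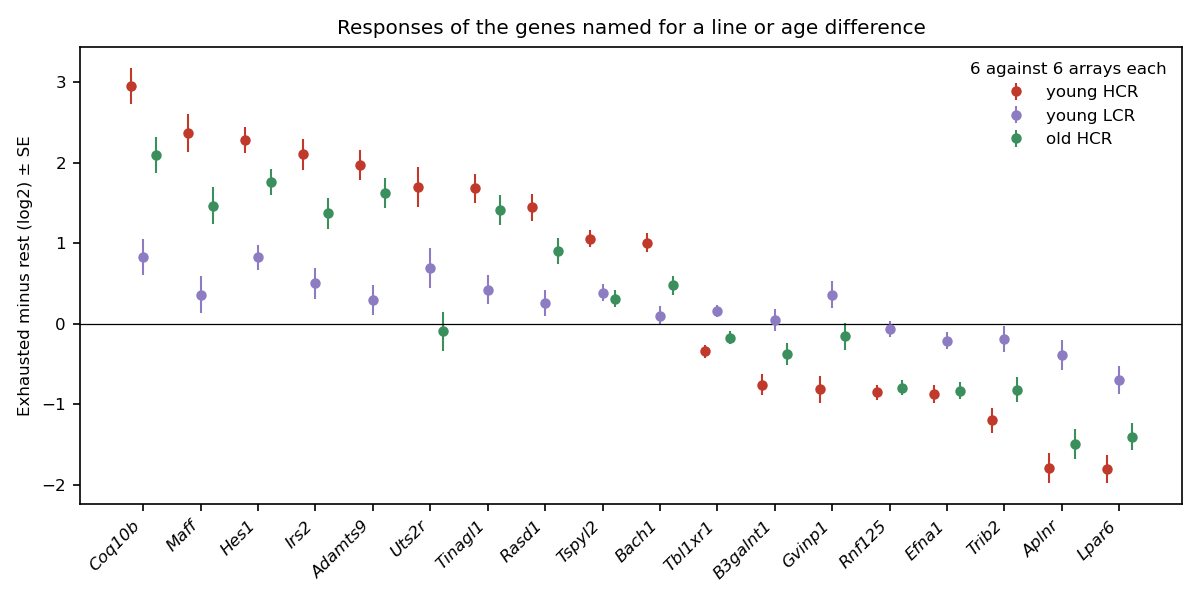
Exhausted minus rest differences (y axis, log2, with SE bars from the limma fit, 6 against 6 arrays each) of the genes named for a line or age difference (x axis) in young HCR, young LCR and old HCR rats. For 16 of the 18 genes the line difference named them, and Coq10b, for instance, was higher by 2.95 in young HCR rats and by 0.82 in young LCR rats, where it did not pass; Uts2r and Tspyl2 were named for age.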

How the data were processed

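RNA of extensor digitorum longus muscle, 400 ng per sample, was hybridised to arrays of the Affymetrix Rat Gene ST 2.1 type, per the labels' protocols. The deposited values are log2 signals, 1 per probe set and array, from 0.569 to 13.6, with array medians of 4.47 to 4.59. RMA and oligo are named in the submitters' processing notes and Expression Console in the series' design text, and which of them made the table is not stated. No scanner files were used, so background and saturation per probe set are unknown, and the number of arrays limits the precision.

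Of 36685 probe sets 14824 have 1 gene in the platform annotation, 829 have several and 21032 have none. Of the 14824, 14670 were updated by Entrez ID, 89 by symbol, and 65 kept the annotation's name. Where 234 genes had several probe sets, the one with the highest mean over 48 arrays stood for the gene, and in 1 gene another probe set went the opposite way. A gene was kept where 6 or more arrays exceeded 4.54, the median of the whole table, which left 9558 of 14557.

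One mean per group was fitted over the 48 arrays with limma 3.58.1 in R 4.3.3 (lmFit, contrasts.fit and eBayes, 40 residual and 3.77 prior degrees of freedom). Tests are two-sided, adjusted p-values are Benjamini-Hochberg over all genes tested, and the threshold is 0.05. A difference of responses is an interaction contrast in that fit. SE comes from limma. The code was tested on simulated data. Figures were drawn with matplotlib 3.10.9 under Python 3.11.15.

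The comparison, its gene lists and the markers were chosen with earlier results of these data known. Older symbols in 17 list entries were updated through the RefSeq table, after the data were seen. Lists are described by counts and medians, with no set test. Genes named are the 15 largest rises and 15 largest falls, up to 4 called members of each list (otherwise 2 by mean level), and up to 8 genes per direction of each difference of responses, leaving out provisional symbols such as those that begin with LOC. Other list members are named for their role. Replicates of a group carry different animal numbers, and no other statement on their independence is given. Promoter sequences are RefSeq's, build GRCr8, and were matched by gene for 7765 of the 9558 genes. Alternatives covered normalization, the filter, probe sets, array weights, the samples in the fit, a liver covariate and a 1.5-fold minimum. Each of the 12 young HCR arrays was also left out in turn, and no array of another group was left out singly.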

Additional observations from a re-analysis of the deposited data

Results flagged for a closer look

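Among 312 sets of 6 values (named genes in exhausted or in rested young HCR rats) 25 held 1 array far from the other 5 by Dixon's test, 8.01%, where chance gives about 1 in 20. Rest replicates 2 and 3 had 6 each, exhausted replicate 1 had 5 and exhausted replicate 6 had 3. In rest replicate 3 the liver genes Alb and Tf were high, at 12.39 and 10.21, against 5.30 to 7.87 and 7.10 to 7.36 in the other rested rats. Cyp2c23 at 7.90, Tinagl1 at 8.40 and Per2 at 6.56 were high in the same rat, and Txnip at 10.63 was low. Alb was also high in exhausted replicate 3, at 8.84, against 5.45 to 6.33 in the other exhausted rats.

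In rest replicate 2 the early response genes Nr4a2 at 8.26 and Atf3 at 5.92 were high, against 6.65 to 7.09 and 5.03 to 5.15 in the other rested rats. Nrarp at 6.42 and Akt1s1 at 8.29 were high there too, and C1qc at 5.79 and B3galnt1 at 5.51 were low. Exhausted replicate 1 was high in Cd4 at 8.50 and in Rpl18 at 10.68, and low in Gadd45g at 8.64, Klf15 at 7.37 and Msmo1 at 6.74. Exhausted replicate 6 was high in Gvinp1 at 5.31, and low in Lyve1 at 7.33 and Pnrc1 at 11.09. Single genes stood apart in exhausted replicate 2 (Klf4 at 9.08, high), exhausted replicate 4 (Myf5 at 4.24, low), exhausted replicate 5 (Eif4ebp1 at 8.69, high) and rest replicate 6 (Plin2 at 8.83, low).

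The response differed between the lines, HCR minus LCR, by 2.13 in Coq10b, 2.01 in Maff, 1.68 in Adamts9, 1.60 in Irs2, 1.46 in Hes1, 1.26 in Tinagl1, 1.18 in Rasd1 and 0.91 in Bach1. It differed by -1.40 in Aplnr, -1.17 in Gvinp1, -1.10 in Lpar6, -1.01 in Trib2, -0.80 in B3galnt1, -0.78 in Rnf125, -0.66 in Efna1 and -0.50 in Tbl1xr1. Between young and old HCR rats, young minus old, it differed by 1.79 in Uts2r and 0.74 in Tspyl2. Each was tested by an interaction contrast in limma.

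Of 11882 probe sets without a single annotated gene, which no comparison above uses, 229 were higher and 251 lower after the run at an adjusted p below 0.05 in limma.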

How the results depend on the processing

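Of the 128 named genes past the threshold 96 stayed past it in each of the 23 alternatives run on them and 32 lost it in at least 1, among them 2 of the 30 largest rises and falls. No named gene changed direction where it passed the threshold in the main fit or in the alternative. Changes of sign in genes that passed in neither were not counted. The count of 461 rises and 369 falls moved to 208 and 82 with a minimum of 1.5-fold, and array weights gave 571 falls. It was 431 and 296 with the 12 young HCR arrays alone. Higher calls were 55.5% of all calls, 63.6% after median centring and 47% with a liver covariate. Leaving out 1 young HCR array gave 364 to 458 rises and 258 to 363 falls. The 26 genes higher in the line difference became 45 with array weights, and the 8 lower became 25 with array weights and 5 with no filter. Leaving out 1 young HCR array gave 10 to 36 higher and 3 to 17 lower. The count of higher genes was 10, 16 and 13 without exhausted replicate 2, exhausted replicate 5 and rest replicate 6. That of lower genes was 5, 17, 5, 14 and 3 without exhausted replicates 2, 3 and 4 and rest replicates 3 and 6. The 2 genes of the age difference became 1 with median centring, 0 with no filter, 4 with array weights and 0 without the arrays of low quality weight. Leaving out 1 young HCR array gave 0 to 4, and the count was 2 without exhausted replicate 1 alone. Single young LCR or old HCR arrays were not left out, so dependence of these differences on them is unknown. The causes of these shifts were not tested. No paired analysis was possible because the labels give no replicate numbers shared between groups. Signal over background is unknown, so changes of dim genes are uncertain in size.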

Other observations

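The genes and families in these paragraphs were chosen after their values were seen. Of 174 tested zinc finger genes whose symbol begins with Zfp 25 fell (14.4%, against 3.86% of all genes) and 7 rose (4.02%, against 4.82%). Their median was -0.13, against -0.03 over all genes, and 124 of the 174 had a lower mean after the run. Zfp763, Zfp608 and Zfp472 were lower by 0.86, 0.72 and 0.90. Zfp472 was dim and overlapped, at 2.92 to 3.60 after the run and 3.22 to 4.66 at rest. Many genes of this class encode repressors of transcription. Of 4 GTPases of the Gimap family 3 fell (75%, against 3.86% of all genes). These were Gimap7, already among the largest falls, Gimap9 by 0.72 ± 0.18 and Gimap4 by 0.70 ± 0.15, and Gimap8 was at -0.30. Of 8 interferon-inducible GTPases Ifgga2l1, Gvinp1 and Ifi47 fell (37.5%, against 3.86%) and Gbp6 rose by 0.92 ± 0.25 (12.5%, against 4.82%). Pdcd1lg2, the second ligand of the checkpoint receptor PD-1, fell by 0.76 ± 0.24 (adjusted p = 0.038 in limma). It was dim, at 3.21 to 4.41 after the run and 3.69 to 5.02 at rest, and the groups overlapped. All its exhausted values lay below the filter limit of 4.54.

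Among rises not described above, Map3k6, a kinase of the stress cascades, differed by 1.96 ± 0.19 (adjusted p = 1.59e-10), the arrestin-domain gene Arrdc3 by 1.80 ± 0.17 (adjusted p = 1.77e-10), and Noct, a clock-linked phosphatase, by 1.04 ± 0.15. Of 6 arrestin genes Arrdc2, Arrdc3 and Arrb2 rose (50%, against 4.82% of all genes). Arrdc2 was already among the largest rises. Thbd, thrombomodulin, differed by 0.87 ± 0.12, and the plasminogen activators Plat and Plau by 0.70 ± 0.13 and 0.73 ± 0.16. Prelp and Angptl7, both secreted, differed by 1.13 ± 0.27 and 1.71 ± 0.46. They were at 0.55 and 0.09 in young LCR rats, and at -0.03 and 0.29 in old HCR rats. The part of the tendon markers in these 2 rises was not tested. Angptl7 was spread in rested rats, from 6.87 to 9.78, against 10.01 to 10.66 in exhausted rats. Among falls were the aryl hydrocarbon receptor Ahr, by 0.86 ± 0.13, the factor Sox4, by 0.86 ± 0.18, and the transferrin receptor Tfrc, by 0.61 ± 0.16. The endothelial genes Tm4sf1, Myct1 and Nrp1 fell by 0.99 ± 0.15, 0.80 ± 0.13 and 0.53 ± 0.10. Endothelial genes did not fall as a group: of the 8 listed markers 2 rose and 2 fell.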
